A study of Mus musculus with 112 samples.

Results

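The 8 genes described here encode transcription factors of the squamous epithelial lineage and of tumour-propagating cells: Pitx1, Sox2, Trp63, Klf4, Klf5, Tfap2a, Tfap2c and Gata3. They were taken by symbol from the array annotation, as 8 of the 18772 genes with a probe set of a single symbol, and each of the 8 had 1 probe set. The study profiled 112 skin, tumour and metastasis samples from 15 mice, 1 Affymetrix array each, and the values are log2 intensities. Each probe set gives 1 value for its gene, so the isoforms of Trp63 were not told apart. The mice were the offspring of Mus spretus and FVB hybrids crossed back to FVB, 6 of genotype HrasKO and 9 wild type (WT). All of them, including the mice that gave control skin, received 25 mg of the carcinogen DMBA at 8 weeks of age and then 200 uL of the tumour promoter TPA 2 times per week. Primary tumours were removed surgically once larger than 1 cm, and all mice carried metastases when killed, so the skin samples came from treated, tumour-bearing animals.

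The arrays held 15 dorsal skins (6 HrasKO and 9 WT mice) and 27 papillomas (4 HrasKO and 9 WT mice). There were 10 squamous cell carcinomas (SCC; 8 WT mice) and 12 spindle carcinomas (4 HrasKO and 6 WT mice). Metastases comprised 24 of SCC histology (3 HrasKO and 8 WT mice) and 20 of spindle histology (4 HrasKO and 3 WT mice). A further 3 carcinomas and 1 metastasis of mixed histology entered no comparison. Several tumours came from the same mouse, so values were averaged per mouse and group and the mouse was the replicate. The HrasKO label does not say how the allele was made, and Hras itself was not analysed here, so the genotype labels have no check of their own.

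DMBA and TPA painting gives benign papillomas, some of which progress to SCC, a tumour that keeps squamous epithelial features, and some to spindle carcinoma, which has lost them. In normal epidermis Trp63 encodes p63, the factor that establishes and maintains stratified epithelium. The AP-2 factors Tfap2a and Tfap2c and the Krüppel-like factors Klf4 and Klf5 act with it, Klf5 mainly in basal keratinocytes and Klf4 in those that differentiate and form the barrier. Gata3 is a factor of the hair follicle inner root sheath, of the differentiating epidermis and of T cells. Sox2 and Pitx1 are little used by normal interfollicular epidermis, and both are known from mouse skin SCC as factors of the cells that propagate the tumour.

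The proximal promoters of the genes that moved in opposite directions in papillomas, Sox2 up and Gata3 down, are shown as the 250 bases before the annotated start, with matches to searched motifs in capitals. Sequences are from RefSeq, build GRCm38.p6, read 5′ to 3′ on the strand of the gene, and 4 of the 8 members matched an entry there (Sox2, Gata3, Klf4 and Tfap2a).
Sox2 (chr3:34649745-34649994, plus strand): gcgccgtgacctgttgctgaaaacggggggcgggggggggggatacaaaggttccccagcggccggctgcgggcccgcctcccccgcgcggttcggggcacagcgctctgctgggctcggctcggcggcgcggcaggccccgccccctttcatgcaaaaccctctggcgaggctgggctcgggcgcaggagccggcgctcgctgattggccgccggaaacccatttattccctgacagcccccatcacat
Gata3 (chr2:9878601-9878850, minus strand): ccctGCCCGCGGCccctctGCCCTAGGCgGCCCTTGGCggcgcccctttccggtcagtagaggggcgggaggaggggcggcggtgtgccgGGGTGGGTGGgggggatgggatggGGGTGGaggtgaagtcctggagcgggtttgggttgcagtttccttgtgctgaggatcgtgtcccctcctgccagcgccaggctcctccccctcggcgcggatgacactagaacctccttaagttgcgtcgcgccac
Motifs were searched on both strands, and capitals mark the matches. The AP-2 motif, GCCNNNGGC, is the letters that Tfap2a and Tfap2c proteins are known to bind, and CCACCC is a core that Krüppel-like factors recognise. The Gata3 promoter held 3 matches to the AP-2 letters and 3 to CCACCC on the other strand (read as GGGTGG, 2 of them overlapping), whereas 13.7% and 28.1% of all 32851 promoters held at least 1. The Klf4 promoter held 1 AP-2 match. The Sox2 promoter and the 2 promoters of Tfap2a held none of the motifs searched. The others searched were AGATAA for GATA factors, held by 3281 of the 32851 promoters, and ACAATG for Sox factors, held by 10.7%. Pitx factors were represented by TAATCC (6.3% of promoters), the AP-1 complex by TGANTCA (6.7%) and the TATA box by TATAAA (12.4%), and the Gata3 and Klf4 promoters held none of these either. A match describes letters in this window and no binding was measured.

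Some arrays went against their labels. Each array's profile over all genes other than the 8 was correlated with the mean of each class (skin, papilloma, SCC, spindle). SCC and papilloma are close to each other, and an array of one that correlated best with the other was not counted, which left aside 8 SCC carcinomas closest to papillomas and 1 papilloma closest to SCC. Beyond those, 12 arrays stood closer to the mean of another class than to their own and are called the arrays that stand apart: 5 papillomas of 4 mice, 6 SCC metastases of 4 mice and 1 spindle carcinoma. Of the papillomas, 1 array of mouse 1508, 1 of mouse 1984 and both of mouse 1815 stood closest to spindle tumours, and 1 of mouse 1407 to skin. All 6 of the SCC metastases stood closest to spindle tumours, and 5 of them were HrasKO, out of 6 HrasKO SCC metastases in all. The spindle carcinoma of mouse 1949 stood closest to papillomas. Krt5, the basal keratin that marks squamous epithelium, averaged 12.11 ± 0.47 in skin (SD, n = 15), 11.82 ± 1.96 in papillomas (SD, n = 13), 12.54 ± 0.17 in SCC carcinomas (SD, n = 8) and 10.53 ± 2.95 in SCC metastases (SD, n = 11). It was 8.45 ± 2.44 in spindle carcinomas (SD, n = 10) and 5.42 ± 0.88 in spindle metastases (SD, n = 7). The lowest mouse means, 5.50 in papillomas and 4.89 in SCC metastases, and the highest in spindle carcinomas, 12.46, lay at the level of another class. Members such as Trp63 follow the profile by which the 12 arrays were chosen, so values without those arrays are given as a description and not as independent support. In bulk RNA, fewer cells of a type and less RNA per cell cannot be told apart.

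**Figure D1:**
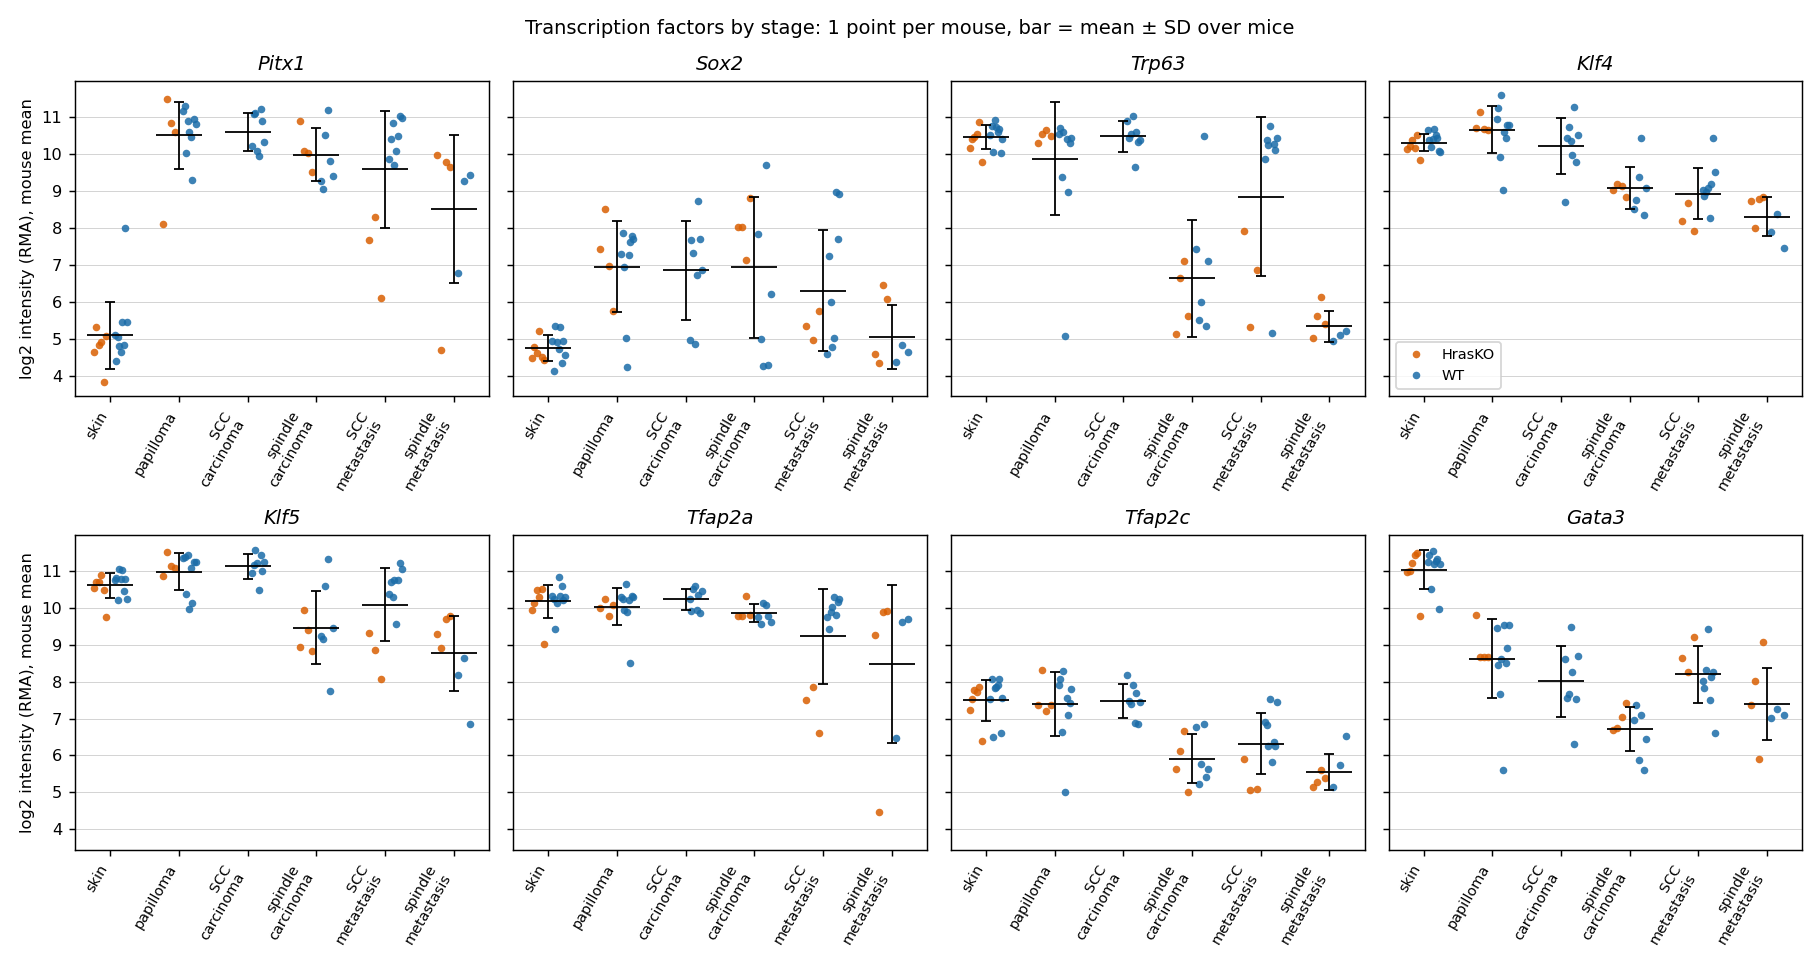
Log2 intensity of the 8 transcription factors in skin, papilloma, carcinoma and metastasis. Each point is the mean of 1 mouse (orange HrasKO, blue WT), and the bars give the mean and SD over mice. Pitx1 lies between 3.83 and 5.46 in all skins but 1, at 8.00, and its mean is 10.50 in papillomas, Gata3 is highest in skin, and Trp63 is lowest in the spindle groups.

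In papillomas against skin of the same 13 mice, Pitx1, Sox2 and Klf5 rose and Gata3 fell, and the other 4 genes did not pass the test. The 4 called of 8 stand beside 42.6% of all 18772 genes called in this comparison. Of all genes, 24.5% were called higher and 18.1% lower.

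Pitx1, a homeodomain factor best known for patterning the hindlimb, had a lowest, median and highest mouse mean of 8.10, 10.81 and 11.49 in papillomas, against 3.83, 4.92 and 8.00 over all 15 skins. The groups did not overlap. The lowest papilloma mean belonged to HrasKO mouse 1407, whose 2 papillomas had 11.25 and 4.94, the second being the array that stood closest to skin. The highest skin belonged to WT mouse 2022, and the next highest skin array had 5.46. The difference was 5.38 on the log2 scale (SE 0.31), a 41.6-fold rise, with adjusted p = 2.18e-07 and a higher value in 13 of 13 mice. Single arrays lay above the highest skin array in 25 of 27 papillomas, and the other papilloma within the skin range, of WT mouse 1984, had 5.33.

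Sox2, an HMG-box factor of embryonic and neural stem cells, had a lowest, median and highest mouse mean of 4.24, 7.30 and 8.51 in papillomas. Over all skins these were 4.12, 4.72 and 5.35. The groups overlapped at the low end, through WT mice 1717 (5.02) and 1815 (4.24). The difference was 2.23 (SE 0.34), a 4.7-fold rise, with adjusted p = 0.000124 and a higher value in 12 of 13 mice. Among single papillomas, 21 of 27 lay above the highest skin array and 6 within the skin range. Merkel cells, a skin cell type that uses Sox2, had 1 of 5 markers higher and 0 lower, with a median difference of 0.07, and the part of those cells in the result was not tested.

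Klf5 had a lowest, median and highest mouse mean of 9.97, 11.14 and 11.52 in papillomas, against 9.75, 10.70 and 11.05 in all skins. The ranges overlapped widely. The difference was 0.40 (SE 0.15), a 1.32-fold rise, with adjusted p = 0.0393 and a higher value in 11 of 13 mice. It was 0.68 without the arrays that stand apart (12 mice) and did not pass in WT mice alone. Nor did it pass with quantile normalization repeated (0.29), with individual arrays (0.36) or in batch 1 alone (0.36). Leaving out any 1 of mice 1383, 1407, 1456, 1509, 1664, 1706, 1717, 2022 or 2104 also ended the call, as did leaving out the mouse block. Klf4 differed by 0.34 (SE 0.19, adjusted p = 0.167), and by 0.65 without the arrays that stand apart. In the same 12 mice Pitx1 differed by 5.85, Sox2 by 2.87, Gata3 by -2.11 and Trp63 by 0.061 without those arrays.

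Gata3 had a lowest, median and highest mouse mean of 5.60, 8.68 and 9.79 in papillomas, against 9.78, 11.21 and 11.53 in all skins. The ranges met at 1 point, between the papillomas of mouse 1407 and the skin of mouse 1706, and every mouse had less in its papillomas than in its own skin. Gata3 fell by 2.36 on the log2 scale (SE 0.31), 5.15-fold, with adjusted p = 4.14e-05 in 13 of 13 mice. Of markers of other Gata3-using cells, 6 of 7 hair follicle markers were lower (median -3.11) and 0 higher. T cell markers went both ways, with 3 of 8 lower and 1 higher (median -0.35). These counts stand beside 42.6% of all genes called. Over arrays, the mean of the hair follicle list ran from 4.31 to 8.89 in papillomas, against 4.54 to 11.72 in skin. The mean of the T cell list ran from 5.06 to 7.20 in papillomas, against 5.59 to 6.96 in skin. Their part in the Gata3 result was not tested.

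Trp63, Tfap2a and Tfap2c did not pass the test between papilloma and skin. The 95% interval of the difference ran from -1.48 to 0.32 for Trp63, from -0.55 to 0.32 for Tfap2a and from -0.62 to 0.49 for Tfap2c. Trp63 was between 8.34 and 10.83 in 24 of the 27 papillomas, and was 4.76 and 5.37 in those of mouse 1815 and 6.03 in 1 of mouse 1984. Tfap2a was within the range of skin in 26 of 27 papillomas, and the exception, at 4.63, was the same 1984 papilloma that was low for Pitx1.

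Relatives of the 8 genes in the Pitx, Sox, p53, Klf, AP-2 and Gata families moved both ways in papillomas. Of 39 measured, 9 rose and 9 fell. The largest rises were Sox15 (1.98), a Sox factor, and Klf12 (1.02), and the largest falls were Gata6 (-2.46) and Tfap2b (-2.14). Of 24 other epidermal transcription factors, 3 rose and 7 fell, with Elf3 (2.41), an epithelial Ets factor, at the top and Pou2f3 (-1.97), a POU factor of keratinocytes, at the bottom. Of 19 genes of stem and tumour-propagating cells, 6 rose and 5 fell, from Hmga2 (3.14), a chromatin protein, to Aldh1a1 (-2.90), an aldehyde dehydrogenase. Of 21 p63 targets in keratinocytes, 4 rose and 5 fell, among them Itga3 (1.48) and Satb1 (-1.38). Of 17 differentiation genes, 5 rose and 0 fell, led by Sprr3 (6.67), a cornified envelope protein, and Krt13 (5.42), a keratin of mucosal epithelium. All differences are log2 and the shares stand beside the 42.6% above.

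**Figure D2:**
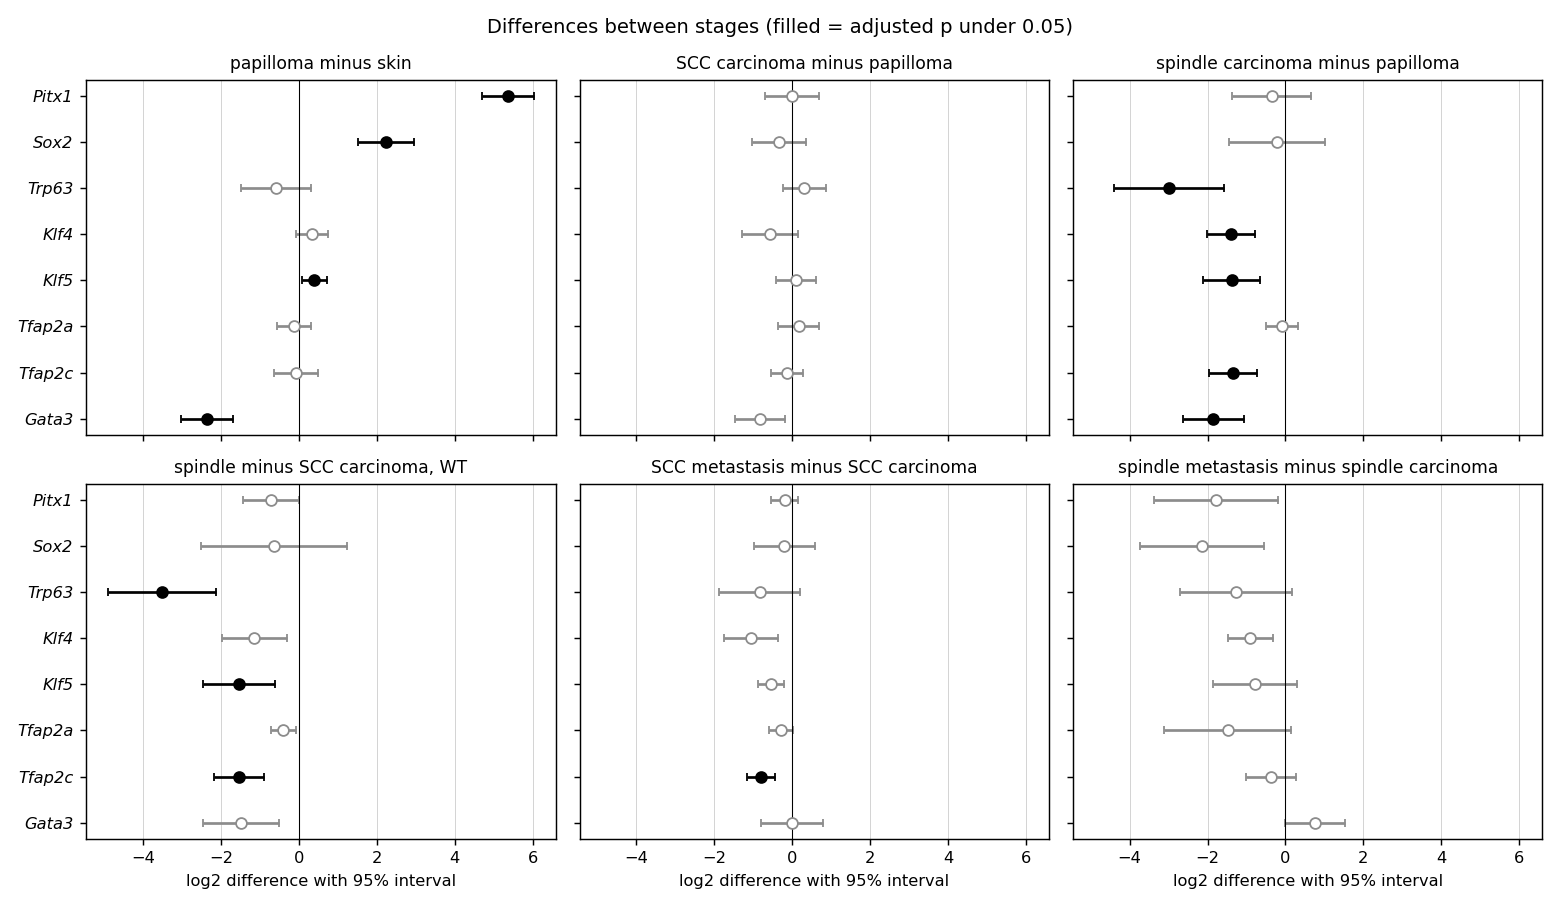
Log2 differences of the 8 genes in 6 comparisons, with 95% intervals. Filled points passed adjusted p under 0.05. The papilloma panel has Pitx1 at 5.38 and Gata3 at -2.36, the SCC carcinoma panel has no filled point, and the spindle carcinoma panel has 5 filled points, all below 0.

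In SCC carcinomas against papillomas of the same 8 WT mice, 0 of the 8 genes passed, beside 0.202% of all genes called by limma, 0.0107% higher and 0.192% lower. At an unadjusted p under 0.05, 1 of the 8 passed, Gata3, as did 1768 of all genes. Gata3 was lower by 0.82 (SE 0.29, adjusted p = 0.359) and lower in 7 of 8 mice. The difference for Pitx1 was -0.01 with a 95% interval from -0.71 to 0.69, and for Trp63 it was 0.31 with an interval from -0.23 to 0.86.

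In SCC carcinomas against skin, Pitx1 (5.22, SE 0.38, adjusted p = 5.4e-05) and Sox2 (2.04, SE 0.48, adjusted p = 0.0117) rose and Gata3 (-3.04, SE 0.30, adjusted p = 0.000184) fell. These 3 of 8 stand beside 30.6% of all genes called, and this comparison shares its skins with the previous ones. Pitx1 was above and Gata3 below every skin array in 10 of 10 SCC carcinomas. Sox2 was above every skin array in 7 of 10, between 6.85 and 8.73, and within the skin range in 3, which had 4.96 (mouse 1383), 4.85 (mouse 1717) and 4.70 (mouse 1949). Mouse 1949 had a second SCC carcinoma with 8.73. Trp63 was between 9.42 and 11.02 in SCC carcinomas, against 9.77 to 10.92 in skin, with a 95% interval of the difference from -0.36 to 0.34. Klf4, Klf5, Tfap2a and Tfap2c did not pass either.

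Over the 10 SCC carcinoma arrays, Sox2 and Gata3 ran in opposite directions, with a Pearson r of -0.89 that describes these arrays of 8 mice and carries no test. The r was 0.47 in the 27 papillomas, 0.35 in the 12 spindle carcinomas, -0.30 in the 24 SCC metastases and 0.27 in the 20 spindle metastases. The carcinoma of mouse 1984 had a Sox2 of 8.73 and a Gata3 of 6.32, whereas that of mouse 1717 had a Sox2 of 4.85 and a Gata3 of 9.47.

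In spindle carcinomas against papillomas of the same 9 mice, 5 of the 8 genes fell and 0 rose: Trp63, Gata3, Klf4, Klf5 and Tfap2c. Of all genes, 23.8% were called in this comparison, 12.6% as higher and 11.2% as lower. The other 3, Pitx1, Sox2 and Tfap2a, did not pass.

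Over all 10 mice with spindle carcinomas, Trp63 had a lowest, median and highest mouse mean of 5.12, 6.31 and 10.48. Over all 13 mice with papillomas it had 5.07, 10.42 and 10.71. The groups overlapped because the spindle carcinoma of mouse 1949 (10.48) and the papillomas of mouse 1815 (5.07) lay at the opposite group's level, and both belong to the arrays that stand apart. The difference was -2.99 (SE 0.63), 7.95-fold lower, with adjusted p = 0.0125 and a lower value in 7 of 9 mice. Without the arrays that stand apart it was -4.35 (7 mice).

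Gata3 was 3.6-fold lower (-1.85, SE 0.35, adjusted p = 0.00953), and lower in 8 of 9 mice. Over all mice of each group, Gata3 had a lowest, median and highest mean of 5.61, 6.85 and 7.41 in spindle carcinomas. In papillomas these were 5.60, 8.68 and 9.79. Klf4 was 2.64-fold lower (-1.40, SE 0.28, adjusted p = 0.0104) and lower in 8 of 9 mice. Its means over all mice of each group ran from 8.36 to 10.44 in spindle carcinomas, against 9.03 to 11.59 in papillomas. Klf5 was 2.59-fold lower (-1.38, SE 0.33, adjusted p = 0.0181), and this call was lost without mouse 1383. Tfap2c, an AP-2 factor of early epidermal commitment, was 2.53-fold lower (-1.34, SE 0.28, adjusted p = 0.0117). The groups overlapped for all 4 genes. For Gata3 this came from the papillomas of mouse 1815 alone, and for Klf4 from these and the spindle carcinoma of mouse 1949. Without the arrays that stand apart the differences were -2.04 for Gata3, -2.07 for Klf4, -2.20 for Klf5 and -2.04 for Tfap2c.

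Pitx1 was between 8.99 and 11.20 in the 12 spindle carcinomas, above every skin array in 12 of 12, with a difference from papillomas of -0.35 (95% interval -1.36 to 0.66). Without the arrays that stand apart the Pitx1 difference was -1.44. Tfap2a differed by -0.09 (95% interval -0.50 to 0.31), and by -0.48 without those arrays. Sox2 differed by -0.21 (95% interval -1.44 to 1.02), and by -1.33 without them. With the carcinomas titled RegCA left out, and in WT mice alone, limma called 0 of the 8 genes and 0 of all genes, with 4 and 5 members and 5423 and 3402 genes at an unadjusted p under 0.05. The labels do not say what RegCA means. With those carcinomas left out (5 mice) the differences were -3.24 for Trp63, -1.52 for Klf4, -1.20 for Klf5, -1.27 for Tfap2c and -1.35 for Gata3. In WT mice alone (6 mice) they were -2.13 for Trp63, -1.19 for Klf4, -1.10 for Klf5, -0.99 for Tfap2c and -1.72 for Gata3.

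Against skin of the same 10 mice, all 8 genes were called in spindle carcinomas, beside 46.7% of all genes. Pitx1 (4.81, SE 0.40) and Sox2 (2.13, SE 0.54, adjusted p = 0.00704) rose. The other 6 fell: Gata3 (-4.29, SE 0.22), Trp63 (-3.81, SE 0.45), Tfap2c (-1.57, SE 0.21), Klf4 (-1.30, SE 0.17), Klf5 (-1.17, SE 0.24) and Tfap2a (-0.41, SE 0.10). Gata3 was below the lowest skin array in 12 of 12 spindle carcinomas, and Trp63 and Klf4 were each below it in 11 of 12. Tfap2a, with the smallest change, was within the skin range in 11 of 12. In WT mice alone, Sox2, Klf5 and Tfap2a did not pass. Merkel cell markers had 1 of 5 higher and 0 lower (median 0.70), and the mean of that list ran from 5.21 to 6.87 in spindle carcinomas, against 4.56 to 5.80 in skin. Hair follicle markers were lower for 6 of 7 (median -4.19) and T cell markers for 5 of 8 (median -0.92). The part of these cells in the Sox2 and Gata3 results was not tested.

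Comparing spindle (6 mice) with SCC carcinomas (8 mice) among WT mice, 3 of the 8 genes were lower and 0 higher, beside 7.56% of all genes called, 3.47% as higher and 4.09% as lower. All p-values here are from limma. Trp63 averaged 6.98 ± 1.91 in spindle (SD, n = 6) and 10.48 ± 0.41 in SCC carcinomas (SD, n = 8), a difference of -3.52 (SE 0.65, adjusted p from limma = 0.0156). Tfap2c averaged 5.94 ± 0.70 in spindle and 7.47 ± 0.46 in SCC carcinomas, a difference of -1.54 (SE 0.30, adjusted p = 0.0162). Klf5 averaged 9.58 ± 1.24 in spindle and 11.12 ± 0.34 in SCC carcinomas, a difference of -1.53 (SE 0.43, adjusted p = 0.0443). The groups overlapped for each of them, through mouse 1949 alone for Trp63 and Tfap2c and also through mouse 1815 for Klf5. Trp63 in the other 5 mice with WT spindle carcinomas lay between 5.36 and 7.42. Gata3 (-1.49, adjusted p = 0.0603) and Klf4 (-1.14, adjusted p = 0.0911) missed the threshold with all arrays. Leaving out mouse 1949 added calls of Pitx1 (-1.06), Klf4 (-1.44), Tfap2a (-0.49) and Gata3 (-1.57), with adjusted p between 0.0165 and 0.0482. That mouse gave the spindle carcinoma that stands apart, so these added calls are no independent support. Leaving out mouse 1508 or 1984 ended the calls of Trp63, Tfap2c and Klf5, and that of Klf5 also ended without mouse 1383, 1456, 1717, 2022 or 2104. Tfap2c did not pass with the RegCA carcinomas left out (-1.22, adjusted p = 0.0732), nor Klf5 in batch 1 alone (-1.52, adjusted p = 0.0771).

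Most p63 targets, epidermal factors and differentiation genes fell as well in spindle carcinomas against papillomas. Of all genes, 11.2% were called lower and 12.6% higher there. The lists were chosen with earlier results of these data known, so their counts are no independent support. Of 21 p63 targets, 16 fell and 1 rose, among them Dsp (-3.53), which encodes desmoplakin, and Dst (1.01), which encodes dystonin. Of 24 other epidermal transcription factors 19 fell, led by Zfp750 (-3.95) and Ovol1 (-3.91), and Rarg rose by 0.30. All 17 differentiation genes measured fell, as did 13 of 14 epithelial identity genes. Of 19 stem and tumour-propagating genes, 7 rose and 1 fell, with Hmga2 (1.77) and Lrig1 (1.31) at the top and Cd44 (-1.72) at the bottom. Of 39 family relatives, 4 rose, led by Sox4 (1.30), and 8 fell, led by Sox15 (-2.66). Between WT spindle and SCC carcinomas, 12 of 21 p63 targets were lower, among them Col17a1 (-3.80), the collagen of hemidesmosomes, and 1 was higher. In that comparison 4.09% of all genes were called lower and 3.47% higher. Mesenchymal genes moved the other way against papillomas, 7 of 14 higher and 1 lower. The mean of that list over arrays ran from 9.38 to 10.80 in spindle carcinomas, against 8.73 to 10.78 in papillomas, and its part in the members' results was not tested.

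**Figure D3:**
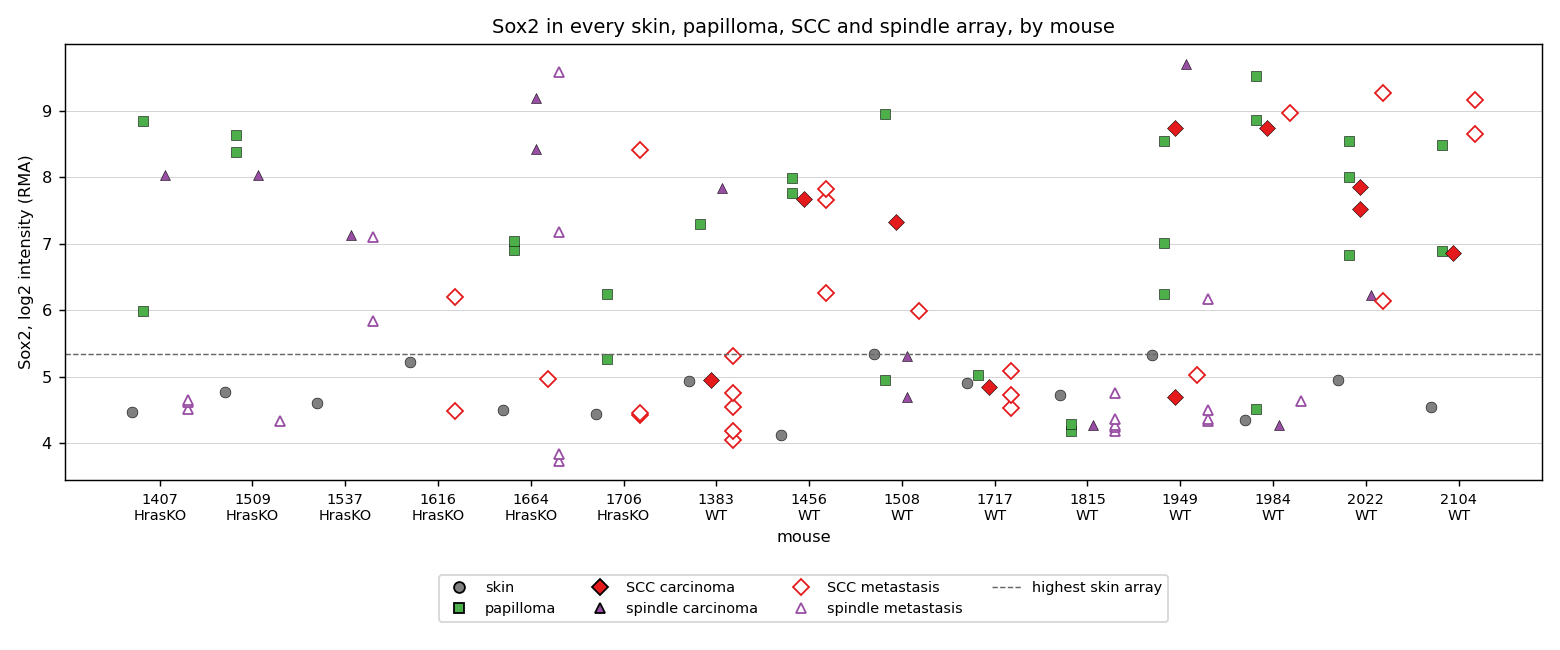
Sox2 log2 intensity in every skin, papilloma, SCC and spindle array, grouped by mouse. Symbols give the stage and histology, and the dashed line is the highest skin array at 5.35. Mice 1717 and 1815 have no tumour above the line, and mice 1456, 1537, 2022 and 2104 have no tumour below it.

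Sox2 varied widely between mice, with an SD of 1.22 over mouse means in papillomas, 1.35 in SCC carcinomas and 1.91 in spindle carcinomas. In mice 1456, 1537, 2022 and 2104 every tumour and metastasis measured lay above the highest skin array. In mice 1717 and 1815 none did. Mouse 1664 had spindle metastases at 9.58, 7.17, 3.84 and 3.74, the first 2 in lymph nodes and the others in thymus and liver. Mouse 1383 had Sox2 at 7.30 in its papilloma and 7.84 in its spindle carcinoma. It had 4.96 in its SCC carcinoma and between 4.06 and 5.32 in its 5 SCC metastases. This is a description of levels with no test.

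In SCC metastases against SCC carcinomas of the same 8 WT mice, 1 of the 8 genes was called, beside 4.55% of all genes, 1.81% higher and 2.74% lower. Tfap2c fell by 0.80 on the log2 scale (SE 0.16), 1.74-fold, with adjusted p = 0.0265 and a lower value in 8 of 8 mice. Its mouse means ran from 5.83 to 7.52 in the WT metastases, against 6.85 to 8.19 in the carcinomas, so the groups overlapped. The call was lost without the mouse block, without mouse 1383, 1456, 1508, 1949 or 1984, and without the 1 metastasis that stands apart (-0.77). Klf4 (-1.05, adjusted p = 0.082) and Klf5 (-0.54, adjusted p = 0.0723) were lower in 6 and 7 of 8 mice and did not pass, although both were called once mouse 2022 was left out. Pitx1, Sox2 and Gata3 differed by -0.19, -0.20 and 0.00, with 95% intervals of -0.54 to 0.16, -0.98 to 0.58 and -0.80 to 0.81. B cell markers moved beside the metastases, with 3 of 5 higher (median 2.81) and 0 lower. The part of lymphoid cells in the result was not tested.

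In spindle metastases against spindle carcinomas of the same 7 mice, limma called 0 of the 8 genes and 0% of all genes (2495 genes and 3 members at an unadjusted p under 0.05). Sox2 averaged 5.05 ± 0.86 in metastases and 7.18 ± 2.13 in carcinomas (SD, n = 7), a difference of -2.13 (SE 0.68, adjusted p from limma = 0.317), and was lower in 5 of 7 mice. Klf4 was lower in 7 of 7 mice (-0.90, SE 0.25, adjusted p = 0.305), and Pitx1 in 6 of 7 (-1.78, SE 0.69, adjusted p = 0.348). The difference between the metastatic change of spindle and SCC tumours was not called by limma for any gene (0%; 1283 genes and 1 member, Pitx1, at an unadjusted p under 0.05), and its estimate was -1.93 for Sox2 (95% interval -4.22 to 0.36).

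Between spindle (7 mice) and SCC metastases (11 mice), 0 of the 8 genes were called, beside 0.0693% of all genes (0.0426% higher and 0.0266% lower), and 3 members and 3378 genes had an unadjusted p under 0.05 by limma. Trp63 had a lowest, median and highest mouse mean of 4.93, 5.20 and 6.13 in spindle metastases, against 5.14, 10.11 and 10.76 in SCC metastases. Mice 1949, 1616, 1664 and 1706, the 4 with SCC metastases that stand apart, had means of 5.14, 7.92, 5.33 and 6.85, and the other 7 had 9.86 or more. Arrays of 1 mouse could differ. Mouse 1616 had 10.28 in a lymph node, an array that does not stand apart, and 5.56 in the lung. Mouse 1706 ran from 5.60 to 8.68. The difference was -2.85 (SE 0.73, adjusted p = 0.0748). In lymph node metastases alone it was -4.45 (adjusted p from limma = 0.00012). Left out there were the lung SCC metastases of mice 1616, 1664 and 1949, with Trp63 at 5.56, 5.33 and 5.14. All of these stand apart, so that call is not independent of the choice of arrays. Without all the arrays that stand apart the difference was -5.08 (7 and 8 mice). That choice takes out the SCC metastases low for Trp63 by construction, so no test is given for it. The differences for Klf5, Tfap2c and Klf4 without those arrays were -2.49, -1.08 and -1.04.

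**Figure D4:**
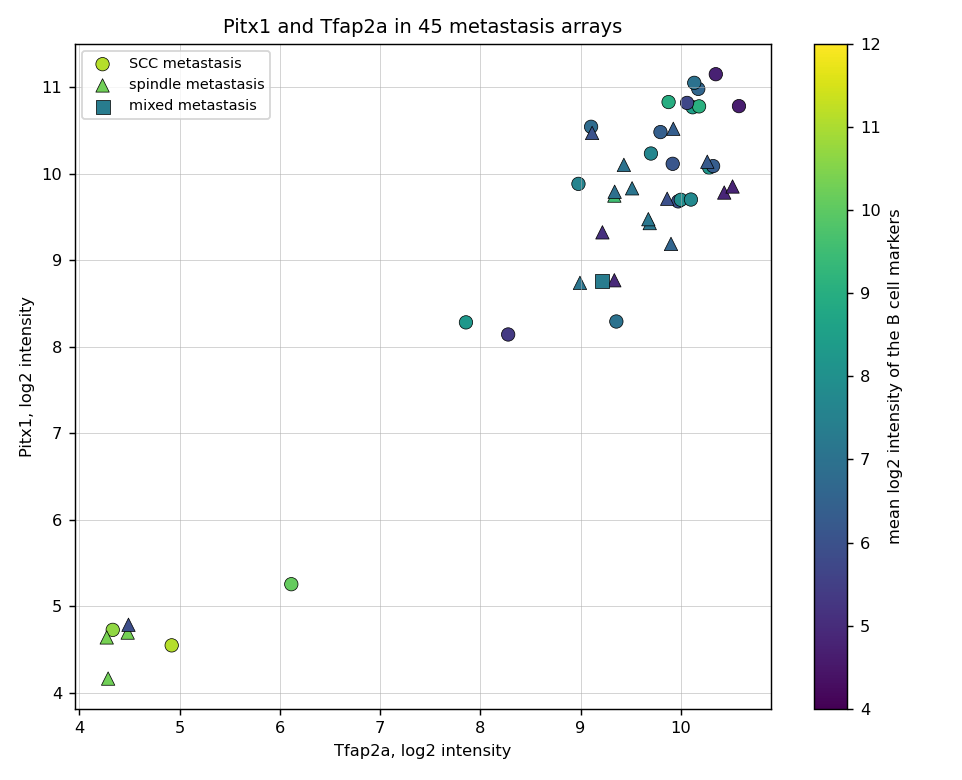
Pitx1 against Tfap2a log2 intensity in the 45 metastasis arrays. Circles are SCC, triangles spindle and the square mixed histology, and the colour gives the mean log2 intensity of the B cell markers. A group of 7 arrays has Pitx1 at 5.26 or less and Tfap2a at 6.12 or less, and 6 of the 7 have the 6 highest B cell means.

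Among all 45 metastases, mixed histology included, 7 arrays had Pitx1 within the range of skin, from 4.17 to 5.26, and the other 38 had 8.14 to 11.15. The same 7 arrays were the 7 lowest for Tfap2a, with 4.27 to 6.12, against 7.86 to 10.58 in the others. They were the liver, spleen and kidney metastases of WT mouse 1815, the lung metastasis of HrasKO mouse 1509, the lung metastasis of HrasKO mouse 1616 and 2 lymph node metastases of HrasKO mouse 1706. Over the 20 spindle and the 24 SCC metastases the r of Pitx1 with Tfap2a was 0.97 and 0.95, a description of arrays that share mice.

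B cell markers stood high in most of the same arrays. The mean of the B cell markers was 10.12 to 11.11 in 6 of the 7 and 9.56 or less in every other metastasis. The T cell mean was 9.51 in the lung metastasis of mouse 1616, 9.71 and 8.69 in the 2 lymph node metastases of mouse 1706 and 9.55 in the liver metastasis of mouse 1815. It was 8.75 in the lung metastasis of mouse 1509, and 7.88 and 5.56 in the spleen and kidney metastases of mouse 1815. In the other metastases it reached 8.22. The liver array of mouse 1815 had a liver marker mean of 10.59. The liver metastases of mice 1383 and 1664 had 12.14 and 10.47, with Pitx1 at 8.14 and 8.77. The kidney metastasis of mouse 1815 had a B cell mean of 5.88 and a kidney marker mean of 4.28, with a fibroblast mean of 11.61. The mean of the epithelial identity genes was 4.96 to 6.98 in the 4 spindle metastases among the 7 and 5.22 to 8.40 in the other 16. It was 5.89 to 6.65 in the 3 SCC metastases among the 7 and 5.84 to 11.08 in the other 21. The part of these other cells in the low Pitx1 and Tfap2a was not tested.

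In SCC metastases by genotype, Pitx1 and Tfap2a were lower in HrasKO (3 mice) than in WT (8 mice), and the other 6 genes did not pass. The 2 called of 8 stand beside 0.154% of all genes, 0.0479% higher and 0.107% lower. All 8 WT mice also had an SCC carcinoma among the arrays, and none of the 3 HrasKO mice did. The carcinomas of mice 1616 and 1706 were of mixed histology and those of mouse 1664 were spindle. Genotype and the histology of the primary tumour therefore cannot be told apart in this comparison. Pitx1 in the 6 HrasKO arrays was 10.82 and 4.55 in mouse 1616, 8.28 in mouse 1664 and 5.26, 4.73 and 8.29 in mouse 1706, against a lowest, median and highest array of 8.14, 10.36 and 11.15 in WT. The mouse means did not overlap, at 7.68, 8.28 and 6.09 in HrasKO and 9.69 to 11.02 in WT. The difference was -3.19 (SE 0.43), 9.11-fold lower, with adjusted p = 0.0346.

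Tfap2a in the HrasKO arrays was 10.06 and 4.92 in mouse 1616, 7.86 in mouse 1664 and 6.12, 4.33 and 9.36 in mouse 1706, against a lowest, median and highest array of 8.28, 10.05 and 10.58 in WT. Its mouse means did not overlap either, at 6.60 to 7.86 in HrasKO and 9.42 to 10.28 in WT. The difference was -2.63 (SE 0.27), 6.19-fold lower, with adjusted p = 0.0346. Klf5 means did not overlap, at 8.08 to 9.31 in HrasKO and 9.57 to 11.21 in WT, and its difference of -1.86 (SE 0.36) had adjusted p = 0.0979. Trp63 was 10.28 in 1 HrasKO array, the lymph node metastasis of mouse 1616, and 5.33 to 8.68 in the other 5, with a difference of -2.86 (SE 1.14, adjusted p = 0.334).

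These values rest on few arrays. Of the 6 HrasKO arrays, 5 stand apart from the SCC class, and 3 belong to the 6 with both low Pitx1 and high B cell means described above. The 1 HrasKO SCC metastasis that does not stand apart had 10.82 for Pitx1 and 10.06 for Tfap2a, within the WT range for both. Without the arrays that stand apart, 1 HrasKO mouse was left against 7 WT mice, and the differences were 0.34 for Pitx1 and 0.087 for Tfap2a, with neither called. In lymph node metastases alone (2 HrasKO and 6 WT mice) they were -2.09 and -1.80, with adjusted p = 0.93 for both. Leaving out mouse 1383, 1616, 1706, 1984 or 2104 ended both calls, and leaving out mouse 2022 that of Pitx1. Without mouse 1949, Trp63 and Klf5 were called lower as well. That mouse held the only WT SCC metastasis that stands apart, with Trp63 at 5.14. The 5 HrasKO arrays that stand apart were kept, so these added calls are no independent support. Within batch 1 (2 HrasKO and 7 WT mice) the differences were -3.53 for Pitx1 (adjusted p = 0.0278) and -2.97 for Tfap2a (adjusted p = 0.00293), and batch 2 held 1 mouse of each genotype. Epithelial identity genes differed by a median of -2.28, and B and T cell markers by medians of 1.56 and 1.27, with 0 of them called. Their part in the result was not tested.

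**Figure D5:**
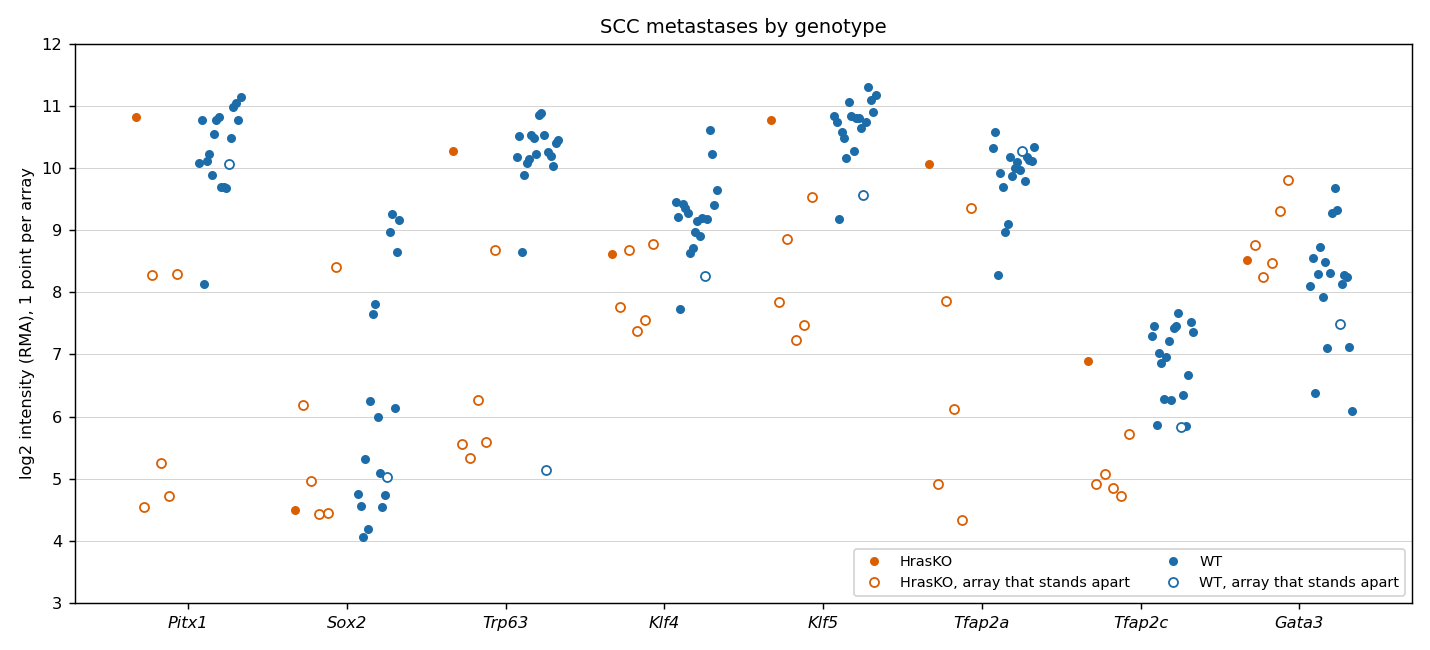
Log2 intensity of the 8 genes in each SCC metastasis, HrasKO (orange) and WT (blue). Open circles are arrays that stand apart from the SCC class, 5 of 6 in HrasKO and 1 of 18 in WT. For Pitx1 and Tfap2a the 1 filled HrasKO point lies among the WT points, at 10.82 and 10.06.

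In the other tissues, limma called 0 of the 8 genes between HrasKO and WT. This held in skin (6 and 9 mice; 0.00533% of all genes called), papillomas (4 and 9 mice; 0.00533%), spindle carcinomas (4 and 6 mice; 0%) and spindle metastases (4 and 3 mice; 0%). At an unadjusted p under 0.05 the counts of all genes were 2062, 959, 626 and 394, and of the members 0, 0, 0 and 1. The 1 was Klf5 in spindle metastases, with mouse means of 8.92 to 9.77 in HrasKO and 6.85 to 8.65 in WT (1.41, SE 0.50, adjusted p = 0.999). Sox2 in spindle carcinomas averaged 8.00 ± 0.69 in HrasKO (SD, n = 4) and 6.22 ± 2.18 in WT (SD, n = 6), with adjusted p from limma = 0.991. Between lung and lymph node metastases of the same 5 mice, 0 of the 8 were called, beside 0.0959% of all genes (0.0906% higher), and by limma 0 members and 1082 genes had an unadjusted p under 0.05.

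Ordered by mean level, most neighbours among the 6 groups were not separated. The SCC carcinomas came from WT mice only, whereas the other groups pool both genotypes, and the order can differ in WT mice alone. There Pitx1 was higher in SCC metastasis (10.42) than in spindle carcinoma (9.88), and so was Tfap2a (9.94 and 9.82), the reverse of the pooled order. Pitx1 ran from SCC carcinoma (10.60) and papilloma (10.50) through spindle carcinoma (9.98) to SCC metastasis (9.58), spindle metastasis (8.51) and skin (5.09). The first 3 were not separated by the tests, and the last steps between neighbours were not tested except between the metastases, which did not differ. Sox2 ran from papilloma (6.95), spindle carcinoma (6.93) and SCC carcinoma (6.85), none separated from the next, to SCC metastasis (6.30), spindle metastasis (5.05) and skin (4.75). SCC carcinoma and SCC metastasis did not differ for Sox2, nor did the metastases, and spindle metastasis against skin was not tested.

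Trp63 ran from SCC carcinoma (10.48), skin (10.46) and papilloma (9.87), not separated, to SCC metastasis (8.84), spindle carcinoma (6.63) and spindle metastasis (5.34). Tfap2a had the same first 3 groups, at 10.23, 10.18 and 10.03, followed by spindle carcinoma (9.86), which did not differ from papilloma. Klf4 was highest in papilloma (10.65), skin (10.31) and SCC carcinoma (10.22), and Klf5 in SCC carcinoma (11.12), papilloma (10.98) and skin (10.61). Of these neighbours only papilloma and skin for Klf5 were separated. Tfap2c was at 7.49, 7.47 and 7.39 in skin, SCC carcinoma and papilloma, without a call between them. All 3 genes were lowest in spindle metastasis, at 8.30 for Klf4, 8.77 for Klf5 and 5.55 for Tfap2c. Gata3 had an order of its own, with skin (11.03) first, papilloma (8.62) next and separated from it, and spindle carcinoma (6.72) last.

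Over the 64 mouse means of the 6 groups, the genes with the most similar profile to each member were found by Pearson correlation, as a description of points that share mice and stages. For Trp63 they were Col17a1 (0.99), Serpinb5 (0.99) and Trim29 (0.99). For Pitx1 they were Pax9 (0.94), Pkm (0.91) and Pgam1 (0.90). Sox2 had the weakest likeness, to Aspa (0.80), Plch1 (0.74) and Krt12 (0.72). After each group's mean was taken off, Col17a1 had 0.98 with Trp63 and Aspa 0.77 with Sox2. Pax9 had 0.81 with Pitx1, but Pkm and Pgam1 had 0.55 and 0.52.

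The highest value was 0.93 for Klf4 (Ide), 0.92 for Klf5 (Fam83h), 0.87 for Tfap2a (Yap1), 0.93 for Tfap2c (Trpv3) and 0.88 for Gata3 (Hephl1). With group means taken off these were 0.77, 0.83, 0.83, 0.86 and 0.57. Among the members themselves, Trp63 correlated with Tfap2c at 0.88 (0.76 with group means taken off), Klf4 with Klf5 at 0.85 (0.77) and Pitx1 with Gata3 at -0.72 (-0.34).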

How the data were processed

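Mouse skin, tumour and metastasis RNA was hybridised to 112 arrays, and the deposited values are log2 intensities that the authors made with robust multi-array averaging (RMA), per the submitters' processing notes. For the RMA version and any batch correction, the sources used here state nothing. Precision is set by how many mice a group holds. Of 28204 probe sets, 21141 had 1 gene symbol, 1881 several and 5182 none; those with 1 were kept, at the highest mean per gene, which gave 18772 genes. Groups, mice and the 2 batches (95 and 17 arrays) came from the labels.

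Each mouse contributed the mean of its arrays in a group, and all genes were fitted together in R 4.3.3 by limma 3.58.1 with moderated tests, two-sided, adjusted over all genes by Benjamini-Hochberg, at a threshold of 0.05. Groups of the same mice had mouse as a fixed block, since the labels give the mouse of every sample. Batch was a term in the genotype comparisons and genotype in that of metastasis histologies, so those differences can depart from the difference of the means. Other groups that share mice kept mouse as a random block (statmod 1.5.0); where its correlation could not be estimated, and when single mice were left out, it was held at the value from all data. Intervals are 95%. The arrays that stand apart correlated better with another class mean than with their own over all genes but the 8, not counting a swap between SCC and papilloma. The named genes are the 8 members, and from 5 lists the 2 largest called changes in each direction. The members and all lists were chosen with earlier results of these data known. The fits were tested on simulated data with known changes. Alternatives changed the filter, scaling, unit of replication, mice, batches, sites and arrays.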

Additional observations from a re-analysis of the deposited data

Results flagged for a closer look

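Mouse means of each gene were tested for a single mouse far from the rest of its group in 72 sets of values, the 8 genes in each group of 4 to 9 mice, and 16 were marked, where chance marks about 1 in 20. No explanation was tested for any of them.

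In WT SCC metastases, Trp63 was 5.14 in mouse 1949 and 9.86 to 10.76 in the others. In WT papillomas, mouse 1815 had the lowest Trp63 at 5.07 (others 8.96 to 10.71), the lowest Tfap2c at 5.01 (others 6.65 to 8.28) and the lowest Gata3 at 5.60 (others 7.68 to 9.53). Tfap2a was 8.51 in the WT papillomas of mouse 1984 and 9.87 to 10.63 in the others. All of these values include arrays that stand apart from their class.

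In HrasKO papillomas, mouse 1509 had a Klf4 of 11.13 (others 10.65 to 10.70) and a Tfap2c of 8.31 (others 7.21 to 7.36), and mouse 1407 a Gata3 of 9.79 (others 8.67 to 8.68). The value of mouse 1407 includes its papilloma that stands apart, closest to skin, with a Gata3 of 10.92. In HrasKO spindle metastases, the lung metastasis of mouse 1509 was lowest for Pitx1 at 4.70 (others 9.65 to 9.97), Klf4 at 8.00 (others 8.74 to 8.83) and Tfap2a at 4.48 (others 9.26 to 9.91). In HrasKO spindle carcinomas Tfap2a was 10.33 in mouse 1537 and 9.77 to 9.79 in the others.

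Some skins also lay away from their group. HrasKO mouse 1706 had a Klf5 of 9.75 (others 10.47 to 10.89) and a Gata3 of 9.78 (others 10.97 to 11.48). WT mouse 2022 had a Pitx1 of 8.00 (others 4.40 to 5.46), and WT mouse 1508 a Tfap2a of 9.41 (others 10.11 to 10.82).

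The 4 arrays of mixed histology, which entered no comparison, all had Pitx1 above the highest skin array (8.00). The mixed carcinomas had 9.76 in HrasKO mouse 1616, 10.34 in HrasKO mouse 1706 and 9.48 in WT mouse 1949, and the mixed metastasis had 8.76 in WT mouse 1508. Sox2 was 10.29 in the mixed carcinoma of mouse 1616, against a highest skin array of 5.35.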

How the results depend on the processing

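Of 2464 values of single members under alternatives, 2362 kept their direction and side of the threshold (or were uncalled in both), 66 lost a call, 34 gained one and 2 called values reversed. Those were Pitx1 (0.34, adjusted p = 0.97) and Tfap2a (0.087, adjusted p = 0.972) in HrasKO against WT SCC metastases without the arrays that stand apart, where 1 HrasKO mouse remained. There, and in lymph node metastases alone, 0 members were called instead of 2. For spindle carcinoma against papilloma, 0 members were called instead of 5 with RegCA carcinomas left out and in WT mice alone, both with fewer mice. Against skin, WT mice alone gave 5 instead of 8. For spindle against SCC carcinomas in WT mice, 6 were called instead of 3 with both genotypes together. That setting adds HrasKO mice to the spindle group only and has no genotype term, so genotype and histology are confounded in this gain. The count was also 6 without the arrays that stand apart. That choice takes out the WT spindle carcinoma closest to papillomas, so this gain is no independent support. For SCC metastasis against carcinoma, 0 were called instead of 1 in batch 1 alone, without the arrays that stand apart and in lymph node metastases alone. For spindle against SCC metastases, 1 member (Trp63) was called instead of 0 with a filter on low values and with individual arrays. The same held in lymph node metastases alone and with no genotype covariate. No count is given there without the arrays that stand apart, a choice that takes out SCC metastases low for Trp63 by construction. The causes were not tested.

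Without the mouse block, papilloma against skin called 3 members instead of 4 and SCC metastasis against carcinoma 0 instead of 1, SCC carcinoma against skin called 4 instead of 3, and the count changed in no other comparison with a block.

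Leaving out 1 mouse at a time gave 0 to 7 members for spindle against SCC carcinomas, 0 to 3 for SCC metastasis against carcinoma, 0 to 1 for spindle against SCC metastases and 0 to 4 for HrasKO against WT SCC metastases. It gave 3 to 5 for papilloma against skin, 4 to 5 for spindle carcinoma against papilloma, 3 to 4 and 8 to 8 for SCC and spindle carcinomas against skin, and 0 for the rest. Batch 2, with 2 mice, was not fitted alone.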

Other observations

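The mixed carcinoma of HrasKO mouse 1616 joined a Sox2 of 10.29, above every other array of the series, with a Trp63 of 4.85, within the range of spindle metastases (4.65 to 6.84). Its Gata3 was 10.01 and its Pitx1 9.76. The mixed carcinoma of HrasKO mouse 1706 had a Trp63 of 10.22 and a Sox2 of 4.62, and that of WT mouse 1949 a Trp63 of 8.27 and a Sox2 of 4.59. The mixed metastasis of WT mouse 1508, in the lung, had a Trp63 of 4.77 and a Sox2 of 4.28. Each is 1 array with no replicate, and no comparison was made.

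Among the 27 papillomas, Trp63 and Tfap2c correlated at an r of 0.91 and Klf4 and Tfap2c at 0.94, over arrays that share mice and include the 5 that stand apart. The 2 spindle carcinomas of HrasKO mouse 1664 had a Gata3 of 9.21 and 5.62 and a Klf5 of 10.13 and 7.55.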
